A study of Mus musculus with 16 samples.

Results

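Dual-specificity phosphatases of the Dusp family remove phosphate from the threonine and tyrosine of MAP kinases, and the expression of 10 Dusp genes that act on MAP kinases (Dusp1, Dusp2, Dusp3, Dusp4, Dusp5, Dusp6, Dusp8, Dusp10, Dusp14 and Dusp16) is described here in macrophages exposed to tumor conditioned media. The genes were chosen by name, by matching the Ensembl identifiers of the count table to gene symbols, and all 10 were found among its 55487 genes and among the 12372 genes that were tested. The choice was made with earlier results of these data known. Expression was measured by RNA-sequencing in bone marrow-derived macrophages (BMDMs) of WT Balb/c mice aged 8 weeks, with 16 samples in 6 groups. BMDMs received plain medium (DMEM, labelled No_CM, n = 2), DMEM with the JAK1/2 inhibitor ruxolitinib (DMEM + Rux, n = 3), or conditioned media of the mouse mammary tumor cell line 4T1 (CM, n = 3). Others received CM with ruxolitinib and a label of 4 h (CM + Rux, n = 3) or 2 h (CM + Rux 2 h, n = 2). The last group received CM with ruxolitinib and the IKK inhibitor IKK-16 (CM + Rux + IKK-16, n = 3). Labels of the groups other than CM + Rux and CM + Rux 2 h give no time, and the study's methods give 4 h of treatment for RNA. Ruxolitinib was given with CM at 0.5 μM, and the dose of IKK-16 was 0.8 μM. The dose of ruxolitinib in DMEM and what the 2 h counts from are not given in the sources used here. Nothing in the labels ties samples to separate mice or cultures, so p-values measure the spread between these samples, which may be technical.

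MAP kinases (ERK, JNK and p38) are switched on by phosphorylation of a threonine and a tyrosine in their activation loop, and the phosphatases switch them off again. Dusp1, Dusp2, Dusp4 and Dusp5 encode nuclear enzymes whose genes are typically switched on within minutes to hours of a stimulus, Dusp6 encodes a cytoplasmic enzyme selective for ERK, and Dusp8, Dusp10 and Dusp16 encode enzymes with a preference for JNK and p38. Dusp3 and Dusp14 encode small atypical members that lack the domain with which the others bind MAP kinases. In macrophages these genes are best known as feedback brakes on inflammatory signaling, Dusp1 above all.

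Promoters are shown for the members that were called in the most comparisons (Dusp16 and Dusp3) and for those, chosen after their sequences were seen, that hold a full match to a searched motif (Dusp1, Dusp8 and Dusp14). Each sequence runs 5′ to 3′ on the strand of the gene and covers the 250 bases before the RefSeq start, in build GRCm38.p6, with any match in capitals. The windows are chr6:134792629-134792878 for Dusp16, chr11:101984792-101985041 for Dusp3, chr17:26508473-26508722 for Dusp1, chr7:142095285-142095534 for Dusp8 and chr11:84068358-84068607 for Dusp14, all on the minus strand. The windows of Dusp3, Dusp1, Dusp8 and Dusp14 lie inside the gene spans of the count table given below, which reach further upstream than the RefSeq start. That of Dusp16 lies outside its span.
Dusp16: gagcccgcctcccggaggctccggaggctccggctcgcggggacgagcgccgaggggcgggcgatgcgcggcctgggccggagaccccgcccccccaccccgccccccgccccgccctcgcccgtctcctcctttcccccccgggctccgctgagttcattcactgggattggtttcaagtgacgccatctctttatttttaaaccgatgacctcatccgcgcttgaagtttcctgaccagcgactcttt
Dusp3: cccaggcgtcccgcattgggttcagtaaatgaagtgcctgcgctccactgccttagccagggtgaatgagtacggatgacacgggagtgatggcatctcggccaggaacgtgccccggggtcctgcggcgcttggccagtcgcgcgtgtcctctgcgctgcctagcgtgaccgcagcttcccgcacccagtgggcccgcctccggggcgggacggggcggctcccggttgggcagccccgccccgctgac
Dusp1: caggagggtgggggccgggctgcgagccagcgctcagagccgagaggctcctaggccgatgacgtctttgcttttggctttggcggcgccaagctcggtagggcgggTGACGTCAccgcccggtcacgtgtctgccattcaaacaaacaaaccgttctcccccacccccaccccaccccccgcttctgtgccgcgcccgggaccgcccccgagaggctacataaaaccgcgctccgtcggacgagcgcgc
Dusp8: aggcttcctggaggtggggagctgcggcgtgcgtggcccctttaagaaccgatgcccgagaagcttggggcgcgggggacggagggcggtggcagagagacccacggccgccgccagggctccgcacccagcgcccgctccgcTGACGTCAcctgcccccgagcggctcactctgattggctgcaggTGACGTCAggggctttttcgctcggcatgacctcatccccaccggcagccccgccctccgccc
Dusp14: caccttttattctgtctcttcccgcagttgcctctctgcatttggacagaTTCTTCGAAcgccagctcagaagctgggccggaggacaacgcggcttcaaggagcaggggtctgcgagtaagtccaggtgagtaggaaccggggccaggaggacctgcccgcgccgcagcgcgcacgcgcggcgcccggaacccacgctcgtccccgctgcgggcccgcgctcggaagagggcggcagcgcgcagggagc
The CRE letters TGACGTCA, known as the site of CREB and ATF factors, lay 143 bases before the start of Dusp1 and 107 and 63 bases before the start of Dusp8. They were found in 2 of the 9 members with a sequence in the table, and in 1.55% of its 32851 promoters. The STAT letters TTCNNNGAA lay 200 bases before the start of Dusp14 and were found in 7.02% of all promoters. The AP-1 letters TGANTCA (6.75% of all promoters), the NF-κB letters GGGANNTTC (3.23%) and the ETS letters ACCGGAAGT (0.804%) were not in the windows of the 9 members. Both strands were searched, the windows of Dusp16 and Dusp3 held none of the searched letters, and Dusp4 was not in the table. A match is a description of letters and says nothing of binding.

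Counts on genes summed to between 18449388 and 46215853 per sample. The macrophage list was well expressed (8 of 8 markers tested, summed level 40149 to 57183 CPM, the count divided by the scaled library total), and of 8 epithelial markers of the tumor cells none passed the filter on low counts, with a summed level of at most 0.231 CPM in the samples without CM and 0.184 to 1.45 CPM in those with CM. Of 8 neutrophil markers and of 8 T and NK cell markers 1 each was tested, at summed levels of at most 3.24 and 3.75 CPM, and both sums were higher in CM (1.72 to 3.24 and 3.0 to 3.75 CPM) than in DMEM (0.327 to 0.355 and 0.778 to 1.30 CPM). The summed level of 6 fibroblast markers was 5.83 to 20.9 CPM and overlapped between CM and DMEM. The summed level of 6 B cell markers was 80.2 to 144 CPM in DMEM, 10.6 to 14.2 CPM in CM, 12.2 to 15.5 CPM in CM + Rux and 55.7 to 71.4 CPM in CM + Rux 2 h. This sum was 88.0 to 141 CPM in DMEM + Rux and 11.9 to 15.6 CPM in CM + Rux + IKK-16. Nearly all of it was Ighm, while Ms4a1 was at most 0.0447 CPM in every sample and Pax5 had no counts. The part of these other cells in the results below was not tested. In bulk samples, fewer cells of a type and less RNA per cell cannot be told apart.

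The makeup of the phosphatase transcripts differed between samples with and without CM. Per kilobase of exon, which allows levels to be compared between genes, Dusp3 made up 54.0% ± 6.54 (SD, n = 2) of the summed level of the 10 genes in DMEM and 59.1% ± 2.26 (n = 3) in DMEM + Rux, and Dusp4 was next with 22.2% ± 2.70 and 20.0% ± 0.473. In CM, Dusp3 held 8.16% ± 2.74 (n = 3), and Dusp4 (23.3% ± 6.30), Dusp1 (20.8% ± 3.75), Dusp5 (14.9% ± 3.24), Dusp2 (14.2% ± 2.05) and Dusp16 (13.2% ± 1.87) each held more. The summed level itself was 114 ± 3.85 CPM per kilobase in DMEM, 112 ± 5.01 in DMEM + Rux, 265 ± 54.6 in CM, 247 ± 54.8 in CM + Rux, 211 ± 22.3 in CM + Rux + IKK-16 and 368 ± 72.7 in CM + Rux 2 h. Every sample with CM lay above every sample without it. With IKK-16, Dusp4 held the largest share (41.8% ± 6.75), and in CM + Rux 2 h the largest mean share was that of Dusp5 (24.9% ± 4.59, n = 2), which led in number 2 (28.1%) and stood below Dusp4 in number 3 (21.6% against 23.2%).

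**Figure D1:**
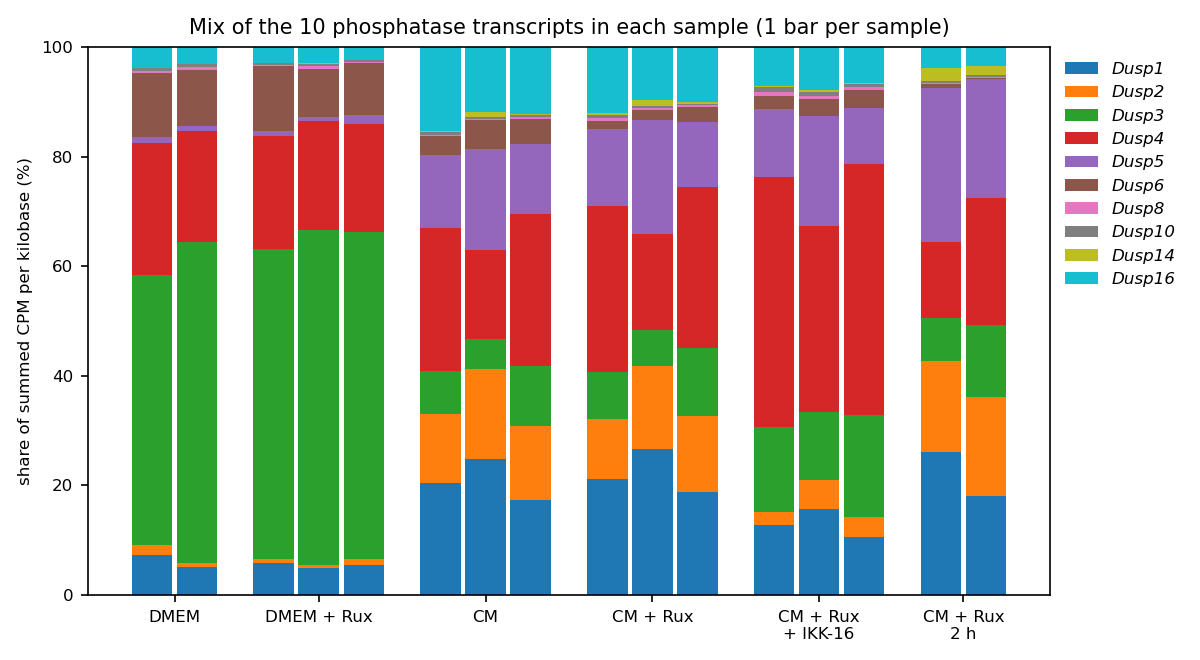
Share of each of the 10 genes in their summed CPM per kilobase of exon (y axis, percent), 1 bar per sample, samples grouped by condition on the x axis. Dusp3 holds 54.0% of the mean DMEM sample and 8.16% of the mean CM sample, where Dusp1, Dusp2, Dusp5 and Dusp16 hold larger shares.

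The comparison of CM with DMEM asked how tumor-derived factors changed the genes. CM raised 6 of the 10 genes (Dusp1, Dusp2, Dusp4, Dusp5, Dusp14 and Dusp16), lowered Dusp3, and did not change Dusp6, Dusp8 or Dusp10 past the thresholds, which ask for an adjusted p-value under 0.05 together with a log2 fold change above 0.5 or below -0.5. The same rule called 45.0% of all 12372 genes in this comparison (20.9% higher and 24.1% lower). The median log2 fold change of the 10 genes was 2.13, against 0.00 for all genes tested, and the median size of the change was 2.29 against 0.49. Samples of CM and DMEM did not overlap for 9 of the 10 genes (8 higher and 1 lower), against 74.8% of all genes (37.8% higher and 37.0% lower).

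**Figure D2:**
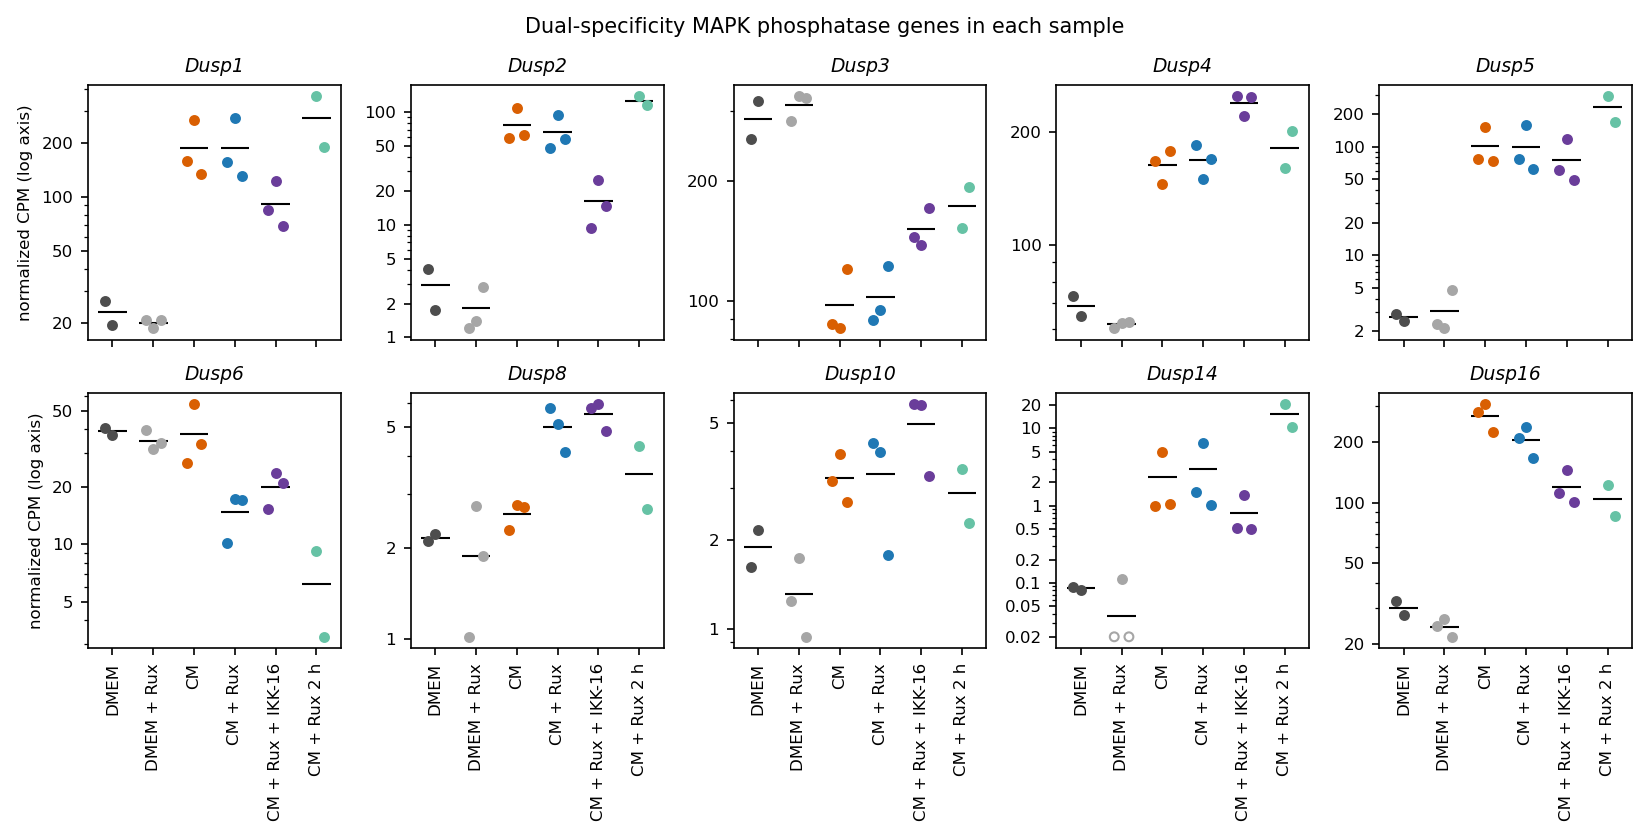
Normalized CPM (y axis, log scale, each gene with its own range) of the 10 genes in each of the 16 samples by condition. Points are samples, lines are group means, and open points of Dusp14 at the foot of its axis stand for 0 counts. Dusp1, Dusp2, Dusp5, Dusp14 and Dusp16 are higher in every CM sample than in every DMEM sample, and Dusp3 is lower.

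Dusp5 (ENSMUSG00000034765, chr19:53529109-53542431, plus strand, GRCm38), a nuclear phosphatase specific for ERK, was at 2.87 and 2.50 CPM in DMEM and at 76.8, 151 and 73.5 CPM in CM. Dusp2 (ENSMUSG00000027368, chr2:127336159-127338376, plus strand), a nuclear phosphatase of activated immune cells, was at 4.08 and 1.76 CPM in DMEM and at 59.1, 109 and 63.4 CPM in CM. Both were low in plain medium and higher in every CM sample. The fold change was 37.3 for Dusp5 (log2 5.22 ± 0.64, SE, adjusted p = 8.9e-06) and 25.6 for Dusp2 (log2 4.68 ± 0.54, adjusted p = 5.4e-06), and that of Dusp2 was 43.8 without DMEM number 1 and 15.0 without the samples numbered 2. Dusp1 (ENSMUSG00000024190, chr17:26505590-26562128, minus strand), an immediate-early gene whose product inactivates p38 and JNK, was at 26.5 and 19.5 CPM in DMEM and at 159, 269 and 133 CPM in CM, an 8.10-fold difference (log2 3.02 ± 0.42, adjusted p = 2.7e-05). Its samples did not overlap between the groups.

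Dusp16 (ENSMUSG00000030203, chr6:134715468-134792625, minus strand), whose product prefers JNK and whose promoter is shown above, had the smallest adjusted p-value of the 10 genes. It was at 32.6 and 27.8 CPM in DMEM and at 280.0, 306 and 223 CPM in CM, an 8.91-fold difference (log2 3.15 ± 0.22, adjusted p = 6.4e-08). Dusp4 (ENSMUSG00000031530, chr8:34807297-34819894, plus strand), a nuclear relative of Dusp1, was already at 73.3 and 64.7 CPM in DMEM and reached 167, 145 and 178 CPM in CM, a 2.36-fold difference (log2 1.24 ± 0.12, adjusted p = 1.2e-06). Samples of these genes did not overlap between the groups.

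Dusp14 (ENSMUSG00000018648, chr11:84048041-84069261, minus strand), an atypical member, had 3 and 2 counts in the DMEM samples, and 18, 167 and 26 counts (1.0, 4.96 and 1.06 CPM) in the CM samples. Pooled over samples, its level in CM was 32.3 times that in DMEM, with an exact 95% interval of 13.6 to 100.4 that covers counting error only, and edgeR's adjusted p was 0.0068. CM number 2 held 167 of the 211 CM counts, and without it the ratio was 12.1 (4.79 to 39.0). Without DMEM number 1 the adjusted p was 0.055. Dusp3 (ENSMUSG00000003518, chr11:101971143-101987013, minus strand), an atypical member that acts on ERK and JNK, went the other way. It was at 256 and 319 CPM in DMEM and at 87.4, 85.0 and 120.1 CPM in CM, and fell by 1.56 ± 0.17 on the log2 scale (adjusted p = 3.6e-06).

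Dusp6 (ENSMUSG00000019960, chr10:99263231-99267489, plus strand), the cytoplasmic ERK phosphatase whose transcript is itself raised by ERK signaling, was at 40.7 and 37.4 CPM in DMEM and at 26.5, 54.1 and 33.4 CPM in CM. The CM samples lay on both sides of the DMEM samples (log2 -0.03 ± 0.34, adjusted p = 0.94). Dusp8 (ENSMUSG00000037887, chr7:142079490-142095843, minus strand) ranged from 2.1 to 2.21 CPM in DMEM and from 2.28 to 2.76 CPM in CM (log2 0.28 ± 0.31, adjusted p = 0.45). Dusp10 (ENSMUSG00000039384, chr1:184013302-184075636, plus strand), whose product prefers JNK and p38, ranged from 1.63 to 2.17 CPM in DMEM and from 2.69 to 3.92 CPM in CM. Its log2 fold change of 0.80 ± 0.39 missed the threshold (adjusted p = 0.086), and passed it with the replicate number as a block (1.03 ± 0.21, adjusted p = 6.0e-04), in a model of only these groups (adjusted p = 0.033) and without CM + Rux number 3, whose samples share the estimate of the spread (0.80, adjusted p = 0.044). For Dusp10, DESeq2 gave an adjusted p of 0.068, and 4 of 23 alternatives gave a call. Its log2 fold change was 0.59 to 1.01 with samples left out. Dusp8 and Dusp10 had 41 to 132 counts per sample in CM, the least of the members other than Dusp14.

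**Figure D3:**
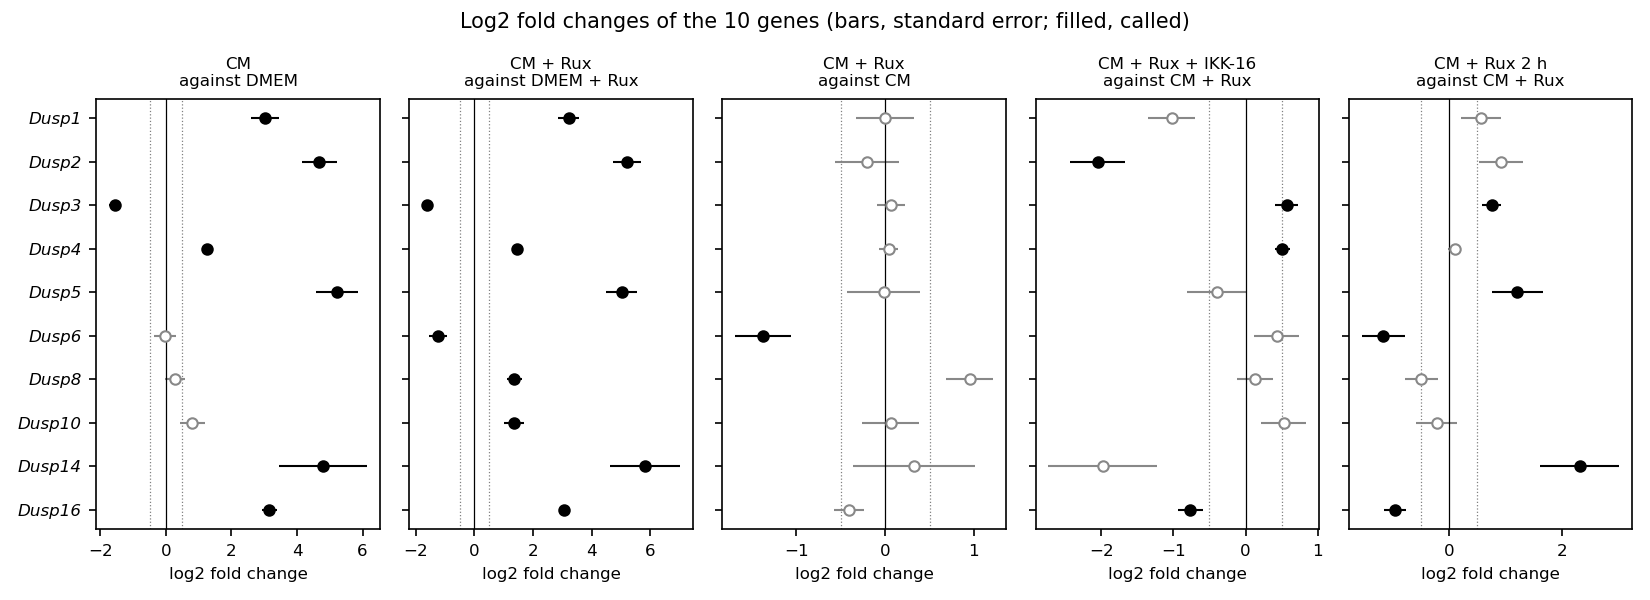
Log2 fold change (x axis, with its own range in each panel) of the 10 genes in 5 comparisons, with standard errors as bars. Filled points are called genes, and dotted lines mark the 0.5 threshold on the log2 scale. In all, 7 genes are filled for CM against DMEM, 10 for CM + Rux against DMEM + Rux and 1 for CM + Rux against CM.

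CM + Rux against DMEM + Rux asked the same question with ruxolitinib in both arms, on samples that the comparison above does not use. The 2 comparisons are not independent. They share the estimate of the spread, and same-numbered samples of CM and CM + Rux deviated together from their group means (correlation 0.53 to 0.72). All 10 genes were called, 8 higher and 2 lower, where 47.3% of all genes were called (22.3% higher and 25.0% lower). The samples of the groups did not overlap for any of the 10 genes, against 70.0% of all genes (35.2% higher and 34.8% lower). Dusp2 (log2 5.20 ± 0.48, adjusted p = 4.1e-07), Dusp5 (5.02 ± 0.52), Dusp1 (3.22 ± 0.36), Dusp16 (3.07 ± 0.19, adjusted p = 9.8e-09) and Dusp4 (1.45 ± 0.11) rose and Dusp3 fell (-1.61 ± 0.16). Dusp8 rose from 1.0, 2.75 and 1.88 CPM to 5.77, 5.13 and 4.12 CPM (log2 1.37 ± 0.26, adjusted p = 3.9e-04), and Dusp10 rose from 1.25, 1.74 and 0.939 CPM to 4.26, 4.00 and 1.78 CPM (1.36 ± 0.34, adjusted p = 0.0030). Dusp14 had 0, 5 and 0 counts in DMEM + Rux and 55, 265 and 20 counts in CM + Rux, a pooled ratio of 67.5 with an exact counting interval of 28.7 to 209 (adjusted p = 5.9e-04). CM + Rux number 2 held 265 of the 340 counts, and without it the ratio was 25.7 (10.6 to 81.6). Without DMEM + Rux number 2 no counts were left in DMEM + Rux, and Dusp14 was at least 60.8-fold higher in CM + Rux, against a floor of 3 counts over the group. Dusp6 fell from 39.6, 31.4 and 34.0 CPM to 10.2, 17.2 and 17.1 CPM (log2 -1.24 ± 0.31, adjusted p = 0.0029), which put every sample with CM and ruxolitinib below every sample with ruxolitinib alone.

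CM + Rux against CM asked what inhibition of JAK1 and JAK2 did to the CM response. Only Dusp6 was called, lower, and no member was called higher, where 3.33% of all genes were called (1.2% higher and 2.13% lower). The 3 CM samples of Dusp6 were at 26.5, 54.1 and 33.4 CPM and the 3 CM + Rux samples at 10.2, 17.2 and 17.1 CPM, without overlap, and the level fell by 1.37 ± 0.31 on the log2 scale (2.59-fold, edgeR, adjusted p = 0.022). Leaving out CM number 2 gave an adjusted p of 0.12 (log2 -1.0), and leaving out CM + Rux number 1 also gave 0.12 (-1.15). The adjusted p of Dusp6 was 0.056 in a model of only these groups, 0.0032 with the replicate block and 5.9e-04 with DESeq2. Dusp8 was at 2.28, 2.76 and 2.73 CPM in CM and at 5.77, 5.13 and 4.12 CPM in CM + Rux. Its samples did not overlap either, and its log2 fold change of 0.95 ± 0.26 missed the threshold (adjusted p = 0.058) but passed it with the replicate block (0.95 ± 0.22, adjusted p = 0.013), with DESeq2 (adjusted p = 0.012) and without number 1 or number 2 of DMEM + Rux (adjusted p = 0.018 and 0.028). Dusp8 was called in 6 of 23 alternatives, and its log2 fold change was 0.84 to 1.06 with samples left out. Dusp6 and Dusp8 were the 2 members without overlap, 1 in each direction, against 19.2% of all genes (9.66% higher and 9.57% lower).

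None of the genes that CM had raised most was called with ruxolitinib in CM. The log2 fold change was 0.00 ± 0.32 for Dusp1, -0.01 ± 0.41 for Dusp5, -0.21 ± 0.36 for Dusp2 and 0.33 ± 0.68 for Dusp14. Changes in either direction of at least the size of these errors are not excluded. Dusp16 was at 208, 235 and 165 CPM in CM + Rux against 280.0, 306 and 223 CPM in CM (log2 -0.41 ± 0.17, adjusted p = 0.26), within the fold threshold. It was lower in each same-numbered pair. With the replicate block its adjusted p was 0.0043 (log2 -0.41 ± 0.081), and only the fold threshold kept it from a call. The median size of the change over the 10 genes was 0.13, against 0.11 for all genes. At an unadjusted p under 0.05, 1 member was higher (Dusp8) and 2 were lower (Dusp6 and Dusp16), together 3 of 10, against 15.3% of all genes.

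With ruxolitinib in DMEM alone, none of the 10 genes was called by edgeR or by DESeq2, where 0.97% of all genes were called (0.0% higher and 0.97% lower). None reached an unadjusted p under 0.05, against 5.2% of all genes. The log2 fold change was below 0 for 8 of the 10 genes, with a median of -0.18 against 0.01 for all genes. With 2 samples in DMEM, changes of at least the size of the standard errors given here are not excluded. Samples did not overlap for 2 of the 10 genes, Dusp4 (log2 -0.17 ± 0.12) and Dusp16 (-0.32 ± 0.20), both lower, against 18.5% of all genes (9.66% higher and 8.84% lower). The log2 fold change was -0.16 ± 0.34 for Dusp6, whose samples overlapped (40.7 and 37.4 against 39.6, 31.4 and 34.0 CPM), and -0.14 ± 0.31 for Dusp8. The largest size among members above the limit of counting was -0.73 ± 0.58, for Dusp2, which was at 4.08 and 1.76 CPM in DMEM and at 1.20, 1.41 and 2.82 CPM in DMEM + Rux. No fold is given for Dusp14, which had at most 5 counts in any of these samples. An interaction term tested whether ruxolitinib acted differently with and without CM, and called none of the 10 genes by edgeR or DESeq2 and 0.412% of all genes (0.234% higher and 0.178% lower). It was -1.21 ± 0.46 for Dusp6 (adjusted p = 0.38 by edgeR and 0.23 by DESeq2) and 1.09 ± 0.41 for Dusp8 (adjusted p = 0.36 by edgeR and 0.21 by DESeq2), the 2 members with an unadjusted p under 0.05, against 9.08% of all genes. Without the filter on low counts the adjusted p of Dusp6 was 0.021. The fall of Dusp6 with ruxolitinib thus passed the test in CM and was not shown to differ from the change in DMEM.

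CM + Rux + IKK-16 against CM + Rux asked which genes differed when IKK-16 was added to CM and ruxolitinib. IKK-16 inhibits IKK, the kinase upstream of NF-κB, and no group received it without ruxolitinib. With IKK-16, Dusp2 and Dusp16 were lower and Dusp3 and Dusp4 were higher, 4 of 10 genes where 7.74% of all genes were called (4.07% higher and 3.66% lower). Dusp2 was at 48.1, 94.5 and 58.2 CPM without IKK-16 and at 9.28, 24.9 and 14.7 CPM with it, a 4.13-fold difference (log2 -2.05 ± 0.38, adjusted p = 0.0035). Dusp16 was at 208, 235 and 165 CPM without and at 112, 145 and 101 CPM with IKK-16 (log2 -0.77 ± 0.17, adjusted p = 0.0097). Both stayed above their levels in DMEM, where no sample exceeded 4.08 CPM for Dusp2 and 32.6 CPM for Dusp16.

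Dusp4 was at 184, 149 and 169.7 CPM without IKK-16 and at 249, 221 and 247 CPM with it (log2 0.51 ± 0.10, adjusted p = 0.0054). Its log2 change sat at the edge of the 0.5 threshold and fell below it without CM + Rux number 2 (0.43) and without number 1 or 3 of CM + Rux + IKK-16 (0.48 each). Dusp3 was at 89.5, 94.7 and 122 CPM without and at 145, 138 and 171 CPM with IKK-16 (log2 0.57 ± 0.16, adjusted p = 0.026), and lost the call without CM + Rux number 1 (adjusted p = 0.10) or 2 (0.090) and without CM + Rux + IKK-16 number 1 (0.057) or 3 (0.10). The samples did not overlap for either gene. Dusp3 and Dusp4, which CM had moved in opposite directions, were thus both higher with IKK-16.

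Dusp1 was at 156, 273 and 131 CPM in CM + Rux and at 84.7, 123 and 68.7 CPM with IKK-16. The groups did not overlap, and the log2 fold change of -1.0 ± 0.33 stood just outside the threshold (adjusted p = 0.052). It stood inside with the replicate block (-1.0 ± 0.21, adjusted p = 0.0033) and with DESeq2 (adjusted p = 0.046). It was also inside without CM number 2 or 3, CM + Rux number 3 or CM + Rux + IKK-16 number 2 (adjusted p = 0.033 to 0.048). In a model of only these groups the adjusted p was 0.082. With samples left out the log2 fold change was -1.28 to -0.64, and 10 of 23 alternatives gave a call. Dusp14 was at 1.48, 6.42 and 1.0 CPM without and at 0.515, 1.38 and 0.495 CPM with IKK-16, lower in each same-numbered pair although the groups overlapped. Its log2 fold change was -1.98 ± 0.75 (adjusted p = 0.097) and -1.81 ± 0.32 with the block (adjusted p = 0.0011). The adjusted p was 0.15 both with DESeq2 and in a model of only these groups. With samples left out the log2 fold change of Dusp14 was -2.61 to -0.71. Dusp10 was at 4.26, 4.00 and 1.78 CPM without and 5.77, 5.75 and 3.29 CPM with IKK-16 (log2 0.53 ± 0.31, adjusted p = 0.29; with the block 0.56 ± 0.16, adjusted p = 0.018). Dusp5 (-0.40 ± 0.41), Dusp6 (0.43 ± 0.31) and Dusp8 (0.13 ± 0.25) had overlapping samples and were not called. In all, samples did not overlap for 5 of 10 genes (2 higher and 3 lower), against 31.5% of all genes (14.5% higher and 17.1% lower).

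CM + Rux 2 h against CM + Rux, labelled 4 h, compared the times given in the labels. The 2 h group holds samples numbered 2 and 3, and the 4 h group holds numbers 1, 2 and 3, so the numbers are not balanced. At 2 h Dusp14, Dusp5 and Dusp3 were higher and Dusp6 and Dusp16 were lower, 5 of 10 genes where 23.3% of all genes were called (12.6% higher and 10.7% lower). The median size of the change was 0.84 for the 10 genes and 0.30 for all genes. Samples did not overlap for 6 of the 10 (4 higher and 2 lower), against 59.6% of all genes (28.5% higher and 31.2% lower).

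Dusp14 was at 20.4 and 10.4 CPM at 2 h and at 1.48, 6.42 and 1.0 CPM at 4 h, a 5.0-fold difference (log2 2.32 ± 0.70, adjusted p = 0.018), or 12.0-fold without CM + Rux number 2 and 8.04-fold without the samples numbered 2. These were its highest levels in the series. The adjusted p of Dusp14 was 0.16 without 2 h number 2, 0.064 and 0.055 without CM + Rux number 1 and number 3, and 0.055 with DESeq2. Dusp5 was at 292 and 169 CPM at 2 h and at 77.1, 159 and 61.7 CPM at 4 h (log2 1.21 ± 0.45, adjusted p = 0.048). This call was lost without any of CM numbers 1 and 3, both 2 h samples, CM + Rux numbers 1 and 3, CM + Rux + IKK-16 number 1, both DMEM samples or DMEM + Rux numbers 1 and 2 (adjusted p = 0.051 to 0.33), and with DESeq2 (0.083). Dusp3 was at 152 and 193 CPM at 2 h and at 89.5, 94.7 and 122 CPM at 4 h (log2 0.76 ± 0.17, adjusted p = 0.0035; 0.060 without 2 h number 3), and both 2 h samples stood below every DMEM sample. The summed B cell markers given above, nearly all Ighm, lay between DMEM and CM in the 2 h samples, as Dusp3 did. In CM + Rux + IKK-16 the summed B cell markers overlapped with CM (11.9 to 15.6 CPM), while Dusp3 lay between CM and DMEM (138 to 171 CPM). The part of B cells in the level of Dusp3 was not tested.

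Dusp16 was at 123 and 86.1 CPM at 2 h and at 208, 235 and 165 CPM at 4 h (log2 -0.96 ± 0.20, adjusted p = 0.0020), and held its call with each sample left out. Dusp6 was at 9.17 and 3.27 CPM at 2 h, its lowest levels in the series, and at 10.2, 17.2 and 17.1 CPM at 4 h (log2 -1.17 ± 0.38, adjusted p = 0.027). Its log2 fold change was -2.18 without 2 h number 2 (adjusted p = 0.0059), -2.04 without the samples numbered 2 and -0.69 without 2 h number 3 (adjusted p = 0.22), and without CM + Rux number 2 or 3 its adjusted p was 0.071 or 0.064. In a model of only these groups it was 0.075. Dusp2 was at 139 and 115 CPM at 2 h, above the 4 h samples at 48.1, 94.5 and 58.2 CPM (log2 0.92 ± 0.40, adjusted p = 0.082). It was called with the replicate block (0.79 ± 0.29, adjusted p = 0.036) and without CM + Rux number 2 (1.26, adjusted p = 0.032). It was not called with DESeq2 (adjusted p = 0.17), and 5 of 23 alternatives gave a call. With samples left out its log2 fold change was 0.73 to 1.26. Dusp1 was at 363 and 189 CPM at 2 h and overlapped with 156, 273 and 131 CPM at 4 h (log2 0.56 ± 0.36, adjusted p = 0.23). Without CM + Rux number 2 its log2 fold change was 0.94 (adjusted p = 0.0496), and with samples left out it was 0.011 to 0.96. Dusp4 (0.11 ± 0.12), Dusp8 (-0.49 ± 0.29) and Dusp10 (-0.22 ± 0.37) were not called and their samples overlapped.

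The order of the 6 groups differed between the genes. Dusp2, Dusp5 and Dusp14 were highest in CM + Rux 2 h, whose samples lay above those of the next group, and lower in CM and CM + Rux, which overlapped. Dusp1 had the same order of means, with 276 ± 123 CPM at 2 h and 187 ± 72.2 CPM in CM, but these groups overlapped. Dusp16 was highest in CM (269 ± 42.5 CPM), overlapped with CM + Rux (203 ± 35.3 CPM), and was lower in CM + Rux + IKK-16 (119 ± 22.8 CPM) and CM + Rux 2 h (104 ± 25.8 CPM), which overlapped with each other. Dusp3 was highest in DMEM + Rux (311 ± 24.8 CPM) and DMEM (287 ± 44.5 CPM) and lowest in CM + Rux (102 ± 17.4 CPM) and CM (97.5 ± 19.6 CPM). Dusp4 was highest in CM + Rux + IKK-16 (239 ± 15.9 CPM), above all samples of the other groups.

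The samples numbered 2 stood out for 6 of the 10 genes. Dusp1, Dusp2, Dusp5, Dusp6, Dusp14 and Dusp16 were highest in number 2 in each of the 4 groups with CM, a pattern shown by 17.1% of the genes tested, and Dusp3 and Dusp4 in none of them. For Dusp5, number 2 was 2.01 times the mean of the other samples in CM, 2.30 times in CM + Rux, 2.11 times in CM + Rux + IKK-16 and 1.72 times in CM + Rux 2 h, and for Dusp14 it was 4.82, 5.13, 2.72 and 1.96 times. Number 2 had the highest total count in CM (38502700), CM + Rux (46215853) and CM + Rux 2 h (40752686) and the lowest in CM + Rux + IKK-16 (33845606). The part of depth in this pattern was not tested. Without the samples numbered 2 in every group, Dusp2 (log2 -2.15) and Dusp16 (-0.82) kept their calls with IKK-16, and Dusp1 (-0.91, adjusted p = 0.0070) and Dusp14 (-1.34, adjusted p = 0.043) gained one, while Dusp3 (0.58, adjusted p = 0.098) and Dusp4 (0.48, below the fold threshold) lost theirs. In the same setting Dusp6 lost its call for ruxolitinib in CM (-1.16, adjusted p = 0.054), Dusp2 gained one at 2 h (1.11, adjusted p = 0.028), and the fold change of Dusp5 in CM + Rux against DMEM + Rux was 19.0 (log2 4.25).

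**Figure D4:**
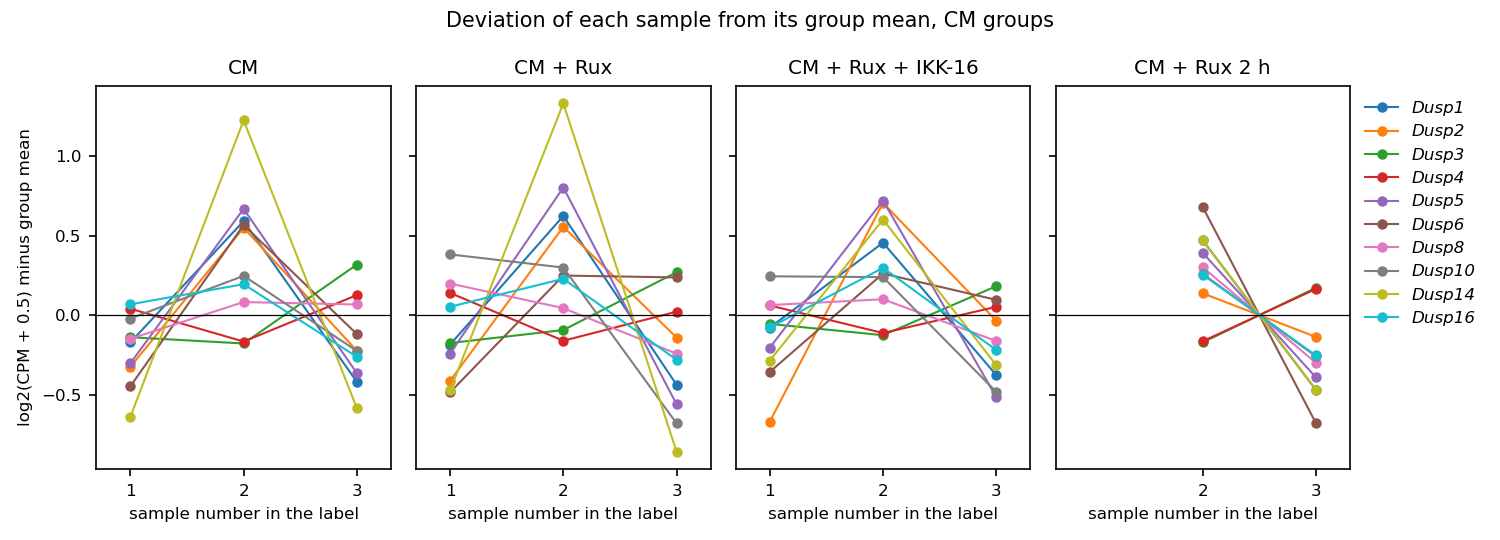
Deviation of log2(CPM + 0.5) from the group mean (y axis) by the number in the sample label (x axis) in the 4 groups with CM, 1 line per gene. Number 2 is the highest sample for 6 of the 10 genes in all 4 groups, and in none of them for Dusp3 and Dusp4.

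Across the 16 samples, log2(CPM + 0.5) of Dusp1 followed that of Dusp2 (Pearson r = 0.98) and Dusp5 (r = 0.97), and Dusp3 ran opposite to Dusp16 (r = -0.98). These values describe samples that share groups and libraries and carry no test. For the 3 genes with the widest range of group means (Dusp5 6.13, Dusp2 5.85 and Dusp14 4.82 log2 units), the genes with the most similar profiles over the 16 samples were Fam110a (r = 0.99), Lmna (0.99) and Smim3 (0.99) for Dusp5, Csnk1a1 (0.99), Rhou (0.99) and Ppp1r18 (0.99) for Dusp2, and Itpkc (0.99), N4bp2l2 (0.98) and Gm12263 (0.97) for Dusp14.

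Other genes of the pathway are given by their counts, and the lists were not tested against each other. The lists were chosen with earlier results of these data known, so differences between them are a description only. Of 14 other Dusp genes, most of which act on other substrates, 10 were tested, and in CM against DMEM none was higher and 4 were lower, with a median log2 fold change of -0.42. At edgeR's thresholds these were Dusp22 (29.4 ± 6.27 to 9.52 ± 0.924 CPM, log2 -1.62, adjusted p = 1.7e-07), Dusp19 (-1.40), Dusp13 (-1.37) and Dusp23 (-1.13), the last without a call when the samples numbered 2 were left out. In CM + Rux against DMEM + Rux 1 was higher (Dusp11, 0.50, and 0.47 to 0.50, below the threshold, without number 1 or 2 of CM + Rux or number 1 or 3 of DMEM + Rux) and 5 were lower (Dusp19 -1.61, Dusp23 -1.53, Dusp22 -1.29, Dusp28 -0.99 and Dusp12 -0.62). Ruxolitinib in CM raised Dusp22 (0.51, adjusted p = 0.024, lost without CM number 1 or 2 and without CM + Rux number 1 or 3), none was called with ruxolitinib in DMEM or in the interaction, and IKK-16 raised Dusp13 (1.11 ± 0.339 to 2.87 ± 0.508 CPM, log2 1.37, adjusted p = 0.0042, or 0.065 without the samples numbered 2). At 2 h against 4 h, Dusp22 (0.50, and 0.48 to 0.50, below the threshold, without number 2 of CM, CM + Rux or CM + Rux 2 h) and Dusp7 were higher. Dusp7, a cytoplasmic ERK phosphatase closely related to Dusp6, was at 92.7 ± 3.54 CPM (n = 2) at 2 h and at 23.7 ± 8.31 CPM (n = 3) at 4 h (log2 1.96 ± 0.29, adjusted p = 1.8e-04), where Dusp6 was lower.

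Of 53 genes for the MAP kinases, the kinases above and below them and other phosphatases that act on them, 46 were tested, and genes are named from the called ones whose mean reached 1 CPM in the groups compared. Ptpn5, a phosphatase below that level, was also called higher in both comparisons with CM. CM against DMEM called 13 higher and 9 lower, among them Map2k4 (61.4 ± 1.48 to 212 ± 51.6 CPM, log2 1.79), an activator of JNK, Map3k8 (1.68), which activates the ERK branch, Map3k9 (-1.86) and Mapk14, the p38α gene (227 ± 20.6 to 97.8 ± 2.53 CPM, log2 -1.21). The median log2 fold change was 0.18, against 2.13 for the 10 phosphatases. CM + Rux against DMEM + Rux called 16 higher and 7 lower, among them Mapk6 (1.64), Map2k3 (1.53), Map3k9 (-1.93) and Map3k12 (-0.98). Ruxolitinib in CM raised Rps6ka5 (9.96 ± 1.71 to 23.2 ± 4.78 CPM, log2 1.22) and Map3k5 (26.3 ± 3.69 to 47.8 ± 1.73 CPM, log2 0.86) and lowered Map3k8 (-0.64, adjusted p = 0.015, lost without CM number 2 and without CM + Rux number 1 or 3). Ruxolitinib in DMEM called none of them. IKK-16 raised Mknk2 (0.67) and lowered 3 genes, among them Map3k5 (47.8 ± 1.73 to 22.0 ± 3.48 CPM, log2 -1.12, adjusted p = 1.3e-04) and Rps6ka5 (-0.87, lost without CM + Rux number 2). At 2 h against 4 h, 7 were higher, among them Map3k14 (1.64) and Map3k5 (1.40), and 6 were lower, among them Ptpn7 (-0.78), a phosphatase of ERK and p38.

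**Figure D5:**
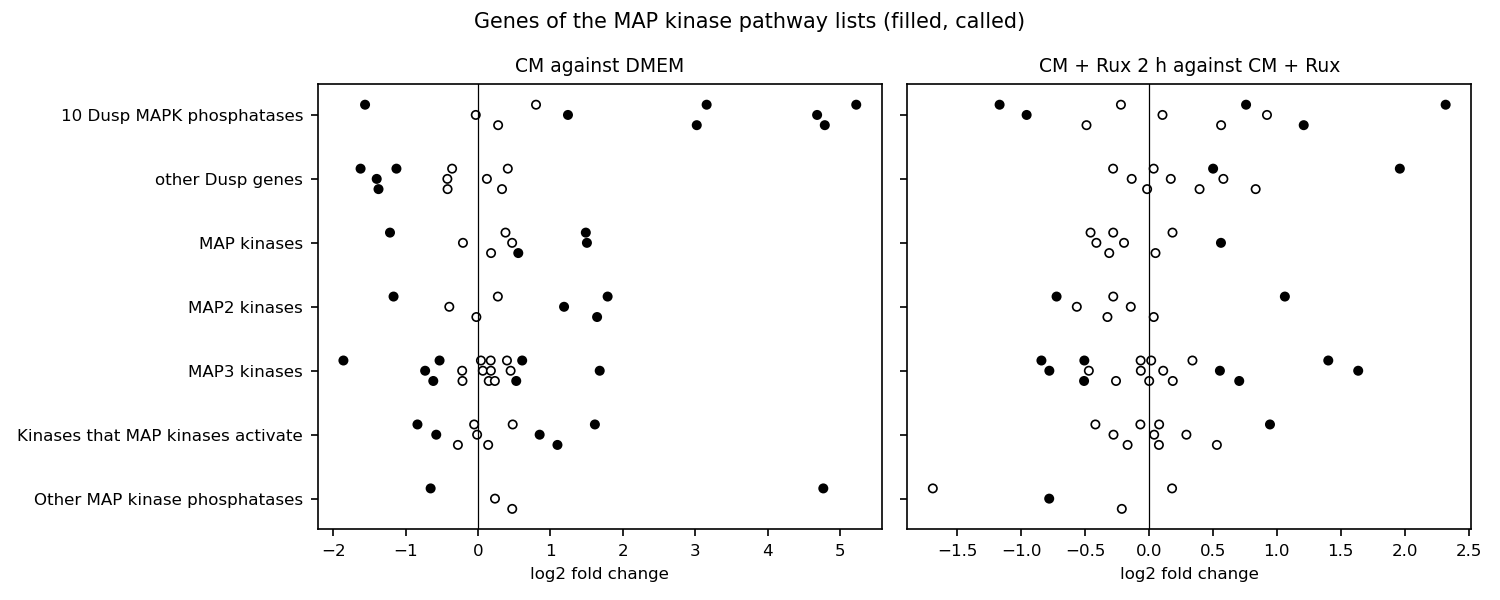
Log2 fold change (x axis) of each tested gene of the phosphatase and MAP kinase lists (rows) for CM against DMEM and for CM + Rux 2 h against CM + Rux. Points are genes, filled where called. Of the 10 phosphatases 6 lie to the right as called in CM, against 0 of 10 other Dusp genes and 13 of 46 pathway genes. The lists were chosen with earlier results of these data known and were not tested against each other.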

How the data were processed

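RNA of 16 BMDM samples in 6 groups was analysed, with groups and replicate numbers taken from the sample labels. The authors trimmed reads with Trimmomatic 0.33, aligned them to GRCm38 with HISAT2 2.1.0 and counted fragments of both mapped ends per gene with featureCounts 1.6.2, on the reverse strand at a mapping quality of at least 10, without fragments of several alignments or genes. The deposited values are raw counts of 55487 Ensembl genes. Symbols and positions came from GENCODE M21 (GRCm38), which named 55141 identifiers. The 346 others hold at most 0.0459% of a sample's counts. No member shares exon bases with another gene on its strand.

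Scaling used the relative log expression method (RLE). The 12372 genes that exceeded 1 CPM in 2 or more samples were tested with edgeR 4.0.16 (quasi-likelihood, 1 model of 16 samples and 6 groups, limma 3.58.1, R 4.3.3), with Benjamini-Hochberg adjustment over all of them. A gene was called at an adjusted p under 0.05 and a log2 fold change beyond 0.5. The study's methods name edgeR and these limits, and its statistics section names a t test for RNA-seq. CPM use RLE-scaled totals. Against total counts alone, RLE shifted the median log2 fold change by 0.31 (CM against DMEM) and 0.30 (CM + Rux against DMEM + Rux), and by less than 0.1 elsewhere. Differences between replicates exceeded sampling noise (chi-square per degree of freedom 13.2 to 50.3). The test was also run on simulated counts drawn independently for each sample. These do not carry the shared deviations of same-numbered samples given below.

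Same-numbered samples deviated together from their group means (correlation over 0.1 in 34 of 35 pairs, -0.011 to 0.717, and over 0.36 in all 15 pairs among groups with CM). The labels do not say what the numbers stand for, so pairing was inferred from the data alone. Calls in the report come from the model without the replicate block unless stated, and blocked values are given where they change a call. The alternatives were TMM, no filter, the filterByExpr filter, the replicate block, a model of only the groups compared, DESeq2 1.42.0, leaving out each sample in turn, and calls without a minimum fold change. Leaving out the samples numbered 2 was added after seeing the data.

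The members and lists were chosen with earlier results of these data known. All 10 members are named, along with called other Dusp genes of at least 1 CPM, up to 2 called MAP kinase pathway genes of at least 1 CPM in each direction and the 3 genes most similar to each of 3 members. Some listed genes are not reported here. Markers were summed for macrophages and for B cells, T and NK cells, fibroblasts, neutrophils and epithelial cells. Promoters were read from a RefSeq table. Protein sequences and their phosphatase motif were not used here. Other steps used Python 3.11.15, pandas 2.3.3, numpy 2.4.6 and matplotlib 3.10.9.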

Additional observations from a re-analysis of the deposited data

Results flagged for a closer look

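Of the genes named, Map3k5, a kinase of the JNK and p38 branches, responded differently to ruxolitinib with and without CM. It was at 26.3 ± 3.69 CPM in CM and 47.8 ± 1.73 CPM in CM + Rux, and at 23.8 ± 0.780 CPM in DMEM and 21.4 ± 2.03 CPM in DMEM + Rux, and the interaction was 1.01 ± 0.18 (log2, edgeR, adjusted p = 0.030). It was lost in 10 of 23 alternatives: without the samples numbered 2 and without any one of CM numbers 1 and 3, CM + Rux numbers 1 and 3, both DMEM samples or the 3 DMEM + Rux samples. The adjusted p ranged from 1.6e-04 to 0.13 over the 23, and the difference is 1 of 51 called in all genes.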

How the results depend on the processing

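Of 1564 recomputed log2 fold changes of the 10 genes, 1454 kept their direction and side of the thresholds, 36 lost a call, 31 gained one and 43 changed sign, all uncalled values. All calls of CM + Rux against DMEM + Rux held. Of 759 values of named list genes, 724 held, 35 lost their call and 0 changed sign. In CM + Rux against CM, members called higher went from 0 to 1 with no filter, the replicate block, only the groups compared and DESeq2 (0 to 1 with samples left out), and members called lower from 1 to 0 with only the groups compared and without the samples numbered 2 (0 to 1 with samples left out). The interaction called 1 member lower with no filter. With IKK-16, members called higher fell to 0 without the samples numbered 2 (0 to 2 with samples left out), and 4 were lower with no filter, the block and without the samples numbered 2. At 2 h against 4 h, DESeq2 called 1 member higher (1 to 5 with samples left out), and only the groups compared called 1 lower (1 to 2). The replicate block changed no call of the 10 genes other than the 6 given with its values in the report (Dusp10 in CM, Dusp8 with ruxolitinib, Dusp1, Dusp10 and Dusp14 with IKK-16, and Dusp2 at 2 h), and took Dusp22 at 2 h below the threshold (0.43). The cause of these changes was not tested. Signs changed in the interaction for Dusp3 with the block (0.055) and Dusp16 without the samples numbered 2 (0.083). With samples left out, log2 ranges that crossed 0 were -0.38 to 0.17 for Dusp6 in CM against DMEM. In CM + Rux against CM they were -0.38 to 0.36 for Dusp1, -0.54 to 0.13 for Dusp2, -0.081 to 0.24 for Dusp3, -0.039 to 0.12 for Dusp4, -0.53 to 0.41 for Dusp5, -0.13 to 0.33 for Dusp10 and -0.94 to 1.58 for Dusp14. In DMEM + Rux against DMEM they were -0.40 to 0.039 for Dusp1, -1.18 to 0.045 for Dusp2, -0.037 to 0.28 for Dusp3, -0.30 to 0.44 for Dusp5 and -0.54 to 0.12 for Dusp8, and in the interaction -0.18 to 0.56 for Dusp1, -0.25 to 0.97 for Dusp2, -0.22 to 0.13 for Dusp3, -0.71 to 0.28 for Dusp5 and -0.21 to 0.037 for Dusp16. They were -0.85 to 0.12 for Dusp5 with IKK-16, and -0.069 to 0.26 for Dusp4 and -0.59 to 0.021 for Dusp10 at 2 h against 4 h. Counts over all genes moved by over 1.5 times in CM + Rux against CM (higher from 149 to 269 with no filter, 305 with the block and 225 with no fold threshold, lower from 263 to 416 and 440), in the interaction (higher from 29 to 213 with no filter, 247 with the block, 147 with DESeq2 and 81 without the samples numbered 2, lower from 22 to 136, 197, 87 and 41), and with no fold threshold in CM against DMEM (higher from 2584 to 3883), with IKK-16 (504 to 831 and 453 to 947) and at 2 h (lower from 1327 to 2471). With 2 samples in DMEM and at 2 h, a sample left out leaves 1, which is assumed to vary like the other groups, and Dusp8, Dusp10 and Dusp14 rest on few counts.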
